A study of Mus musculus with 9 samples.

Results

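The genes described here are *Egr1*, *Egr2* and *Egr3*, which encode early growth response (EGR) transcription factors, and *Nab1* and *Nab2*, which encode the NGFI-A binding (NAB) corepressors that bind EGR proteins. They were taken by gene name from the deposited tables. All 5 are among the 55416 genes listed, and all 5 passed the filter on low counts that kept 13679 genes for testing. The cells were MC3T3-E1, a wild-type mouse calvarial pre-osteoblastic line that can be brought to an osteocyte-like state in culture. All cultures were differentiated in medium with 10 mM β-glycerophosphate (BGP), ascorbic acid and dexamethasone. On day 27 they received 4 mM BGP, an organic phosphate donor, 4 mM NaHPO4, an inorganic sodium phosphate, or no further phosphate (Control). Treatment lasted 16 h, RNA was taken on day 28, and each condition has 3 libraries. The study's methods also describe a last week without BGP before the added phosphate, which the sample labels do not mention, so the Control cells too had seen BGP earlier. Because a single line grown in culture was used, the libraries do not represent separate animals, and the labels do not say that they came from separate cultures. The p-values therefore measure the spread between these libraries, which may be technical.

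EGR factors are zinc finger proteins that bind GC-rich DNA. Their genes belong to the immediate early genes, which are switched on by growth factors, mechanical load and other stimuli through RAS and ERK kinase signalling and serum response factor (SRF). NAB proteins bind most EGR factors and recruit the NuRD chromatin remodelling complex, and *NAB2* is itself a known EGR target, so the EGR and NAB genes are usually described as a feedback loop. EGR genes are well known in bone cells as early responders to hormones and phosphate.

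In GRCm39, *Egr2* lies at chr10:67371305-67378018 and *Egr3* at chr14:70314350-70320063, both on the plus strand. *Nab1* lies at chr1:52494147-52539838 and *Nab2* at chr10:127496786-127504458, both on the minus strand. RefSeq promoter windows were matched for *Egr2*, *Nab1* and *Nab2* of the 5 members, and those for *Egr1* and *Egr3* were not matched. The *Egr2* stretch is shown because it holds a CArG box, the element that SRF binds. *Egr2* is the only EGR member with a matched window. Capitals mark the CArG box, which begins 72 bases before the RefSeq start at 67373699. The stretch, chr10:67373449-67373691 on the plus strand, overlaps no annotated *Egr2* exon and lies inside 2 longer *Egr2* transcripts. Its first 143 bases overlap an exon of the opposite-strand non-coding gene Gm66196.
Egr2 upstream: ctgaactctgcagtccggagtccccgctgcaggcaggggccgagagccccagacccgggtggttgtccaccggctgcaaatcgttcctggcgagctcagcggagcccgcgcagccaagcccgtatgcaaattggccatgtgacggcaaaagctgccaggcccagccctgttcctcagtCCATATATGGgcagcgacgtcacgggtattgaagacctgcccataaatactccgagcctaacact
A second CArG box begins 72 bases before another *Egr2* start, at 67373396, and is shown with its neighbouring bases from chr10:67373311-67373334.
Egr2 upstream 2: taccggatcttctCCTTTTTTGGa

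The CArG box, written as CC, 6 bases of A or T, and GG, was found in the 250 bases before the start in 1.62% of 27025 genes with a RefSeq window. The same windows were searched on both strands for the EGR site GCGNGGGCG, which 5.33% of genes hold. RefSeq gives *Egr2* 5 windows, of which 4, 3 of them overlapping, held a CArG box and 0 an EGR site, whereas the *Nab1* window had 3 EGR sites and no CArG box. The *Nab1* sites are shown because *Nab1* is the corepressor gene whose window holds the motif that EGR proteins bind. Each stretch of 29 bases is written on the minus strand, and capitals mark the 9 bases of the site. The stretches lie at chr1:52539730-52539758, chr1:52539698-52539726 and chr1:52539627-52539655, all within annotated 5′ untranslated exons of longer *Nab1* transcripts. In site 1 the motif reads on the opposite strand.
Nab1 site 1: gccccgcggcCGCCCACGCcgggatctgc
Nab1 site 2: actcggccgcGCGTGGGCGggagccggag
Nab1 site 3: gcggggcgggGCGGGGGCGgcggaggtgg
In the *Nab2* window neither motif was found. That window precedes a RefSeq start at 127502572 and lies inside the annotated gene, whose 5′ end is at 127504458. The bases before that end were not searched. The cyclic AMP response core TGACG (19.8% of genes) occurs in the first *Egr2* stretch, 111 and 55 bases before the start, and in the *Nab1* window. The ETS site CCGGAA (13.6% of genes) has 3 matches in the second *Egr2* window, all outside the bases shown. Those that begin 131 and 129 bases before the start overlap on opposite strands. The GC box GGGCGG (35.4% of genes) occurs 6 times in the *Nab1* window, where some copies overlap the EGR sites, and 1 time in that of *Nab2*. It also occurs 1 time in the second *Egr2* window, outside the bases shown, and 4 times in the *Egr2* window without a CArG box. A match is only a description of these letters, and a window without one says nothing of whether the factor binds.

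Total counts lay between 21390839 and 28234404 per library, and mitochondrial genes took between 2.51 and 2.70% of them. Counts of replicate pairs had a chi-square statistic of 2.61 to 4.84 per degree of freedom over genes, so no library was a copy of another. The osteoblast and osteocyte marker list was detected in full, with 13 of 13 genes tested and a summed level of 56532 to 61916 CPM (read counts scaled to the size of the library) in each library. Within it *Spp1* (osteopontin) and *Dmp1*, an osteocyte matrix protein, were upregulated by both treatments, by 1.48 and 2.86 on the log2 scale with BGP and by 1.97 and 2.19 with NaHPO4. *Fgf23*, the phosphate-lowering hormone of osteocytes, was upregulated with BGP by 2.78 (SE 0.20) on the log2 scale. Its means were low, at 1.20 CPM in Control, 8.39 with BGP and 1.54 with NaHPO4, where it was not called. *Sost* (sclerostin), at a mean of 1.39 CPM in Control, fell by 1.68 (SE 0.38) on the log2 scale with NaHPO4. Over the 13 genes the median log2 fold change with NaHPO4 was -0.09 and 4 were positive. *Col1a1* at -0.22, *Alpl* at -0.21 and *Bglap* at -0.15, genes of bone matrix and mineralization, passed the adjusted p downward without reaching the minimum change. Markers of endothelium and skeletal muscle stayed at or below 0.348 CPM in sum, with *Kdr*, *Myod1* and *Myog* at 0 in all libraries. Leukocyte markers summed to 1.52 to 2.48 CPM, with *Cd3e* at 0, and adipocyte markers to 20.4 to 31.7 CPM with 2 of 6 genes tested and none called. The chondrocyte list, with 4 of 6 genes tested, summed to 261 to 325 CPM in Control, 351 to 457 with BGP and 196 to 277 with NaHPO4, and its *Col2a1*, which carried most of that sum, was called higher with BGP. *Col2a1* had means of 242, 342 and 177 CPM in Control, BGP and NaHPO4. With NaHPO4 it passed the adjusted p downward without reaching the minimum change. *Comp*, in the same list, passed the adjusted p downward with BGP at -0.44 and with NaHPO4 at -0.49. The summed level of this list, like *Egr1*, was highest in the BGP libraries, and its part in the EGR results was not tested. In bulk RNA, a change in the number of cells that express a gene and a change in RNA per cell cannot be told apart.

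*Egr1*, the founding member of the family, was the most abundant EGR gene in every condition per kb of exon and by CPM. It lies on the plus strand of chromosome 18, from 34992876 to 34998049 in GRCm39. It was measured at 102, 98.8 and 109 CPM in the Control libraries, from 2186 to 2763 counts. With BGP it reached 205, 184 and 184 CPM, and with NaHPO4 it stood at 88.0, 83.8 and 83.6 CPM. The 3 conditions did not overlap: every BGP library was above every Control library, and every NaHPO4 library was below. Group means were 103 ± 5.08, 191 ± 12.0 and 85.1 ± 2.49 CPM (SD, n = 3) for Control, BGP and NaHPO4.

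*Egr2*, known for its part in myelination and T cell tolerance, was the least abundant EGR gene that was detected. The Control libraries had 6.83, 7.92 and 8.98 CPM, from 146 to 228 counts. With BGP it was measured at 22.6, 18.4 and 20.8 CPM, and with NaHPO4 at 7.64, 6.99 and 6.64 CPM. The BGP libraries stood apart from the others, while NaHPO4 and Control overlapped. Means were 7.91 ± 1.08, 20.6 ± 2.10 and 7.09 ± 0.511 CPM (SD, n = 3) for Control, BGP and NaHPO4.

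*Egr3*, a close relative whose known roles include muscle spindle development, gave another pattern. It was measured at 30.2, 25.9 and 30.7 CPM in Control, from 595 to 781 counts. BGP libraries had 116, 101 and 92.6 CPM, and NaHPO4 libraries 55.3, 47.5 and 53.8 CPM. All 3 conditions were separate, with NaHPO4 between Control and BGP. Means were 28.9 ± 2.65, 103 ± 11.6 and 52.2 ± 4.15 CPM (SD, n = 3). The relative *Egr4*, listed outside the members, had 0 counts in all 9 libraries, which allows a level of up to 0.106 to 0.140 CPM per library by counting error alone.

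*Nab1* differed little between conditions. Its level was 47.6, 46.9 and 45.8 CPM in Control, 43.7, 49.2 and 48.2 CPM with BGP, and 49.8, 47.1 and 45.3 CPM with NaHPO4, and the 3 ranges overlapped. *Nab2* was measured at 94.5, 89.4 and 92.3 CPM in Control and at 92.5, 90.6 and 94.1 CPM with BGP. With NaHPO4 it stood at 83.2, 83.7 and 89.3 CPM. All 3 NaHPO4 libraries were thus below all 6 others, although the highest of them, at 89.3 CPM, lay just under the lowest Control library at 89.4 CPM.

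**Figure D1:**
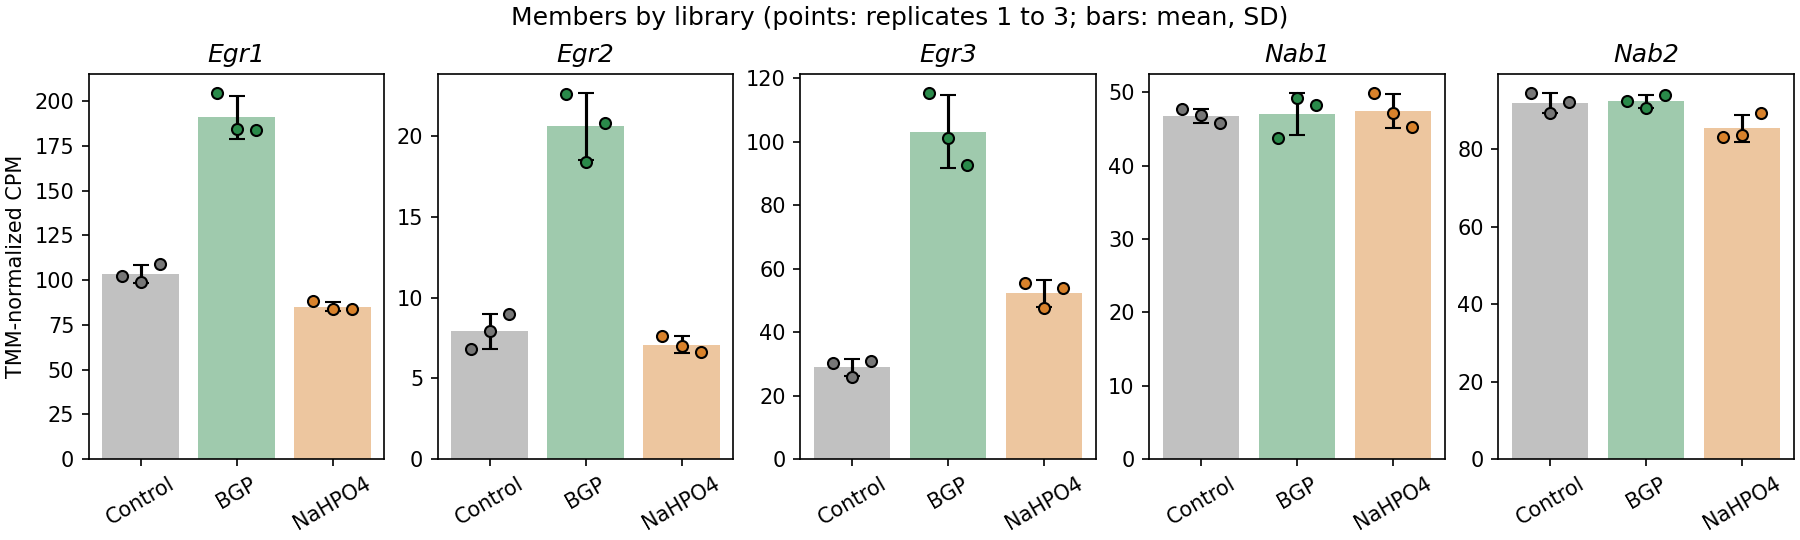
TMM-normalized CPM of the 5 members (vertical axes, each from 0) in Control, BGP and NaHPO4; points are the 3 libraries of each condition, bars the mean and lines the SD. *Egr1* to *Egr3* are highest in the BGP libraries, *Egr3* alone of the 3 is higher with NaHPO4 than in Control, and the *Nab1* and *Nab2* bars are nearly level.

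The first comparison asked how the members differed after the organic phosphate. *Egr1*, *Egr2* and *Egr3* were each higher with BGP than in Control, and *Nab1* and *Nab2* were not. A gene was called a differentially expressed gene (DEG) at an adjusted p under 0.05 in edgeR's quasi-likelihood test and an absolute log2 fold change above 0.5. By this rule 3 of 5 members were higher and 0 lower, beside 0.482% and 0.0731% of all tested genes. Libraries of the same 3 did not overlap between the groups, as was the case upward for 9.74% of tested genes. The EGR genes were singled out with their values in all 3 comparisons known, so their differences are given as a description and nothing is read from that share. The log2 fold change was 0.89 (SE 0.043) for *Egr1*, a 1.85-fold difference. It was 1.37 (SE 0.10) for *Egr2*, or 2.59-fold, and 1.83 (SE 0.067) for *Egr3*, or 3.56-fold. For *Nab1* the log2 fold change was 0.01, with a 95% interval from -0.099 to 0.117 (edgeR adjusted p = 0.962). For *Nab2* it was 0.01, with an interval from -0.077 to 0.088 (edgeR adjusted p = 0.969). Both intervals lie inside the minimum of 0.5 that a DEG needs.

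With NaHPO4 the EGR genes parted. Of the 5 members 1, *Egr3*, was called higher and none lower, beside 0.446% and 0.27% of tested genes. *Egr3* was 1.80-fold higher than in Control, a log2 fold change of 0.85 (SE 0.070). *Egr1* fell by 0.28 on the log2 scale (SE 0.044), which passed the adjusted p, as 3.95% of tested genes did downward, but not the minimum change. *Egr2* had a log2 fold change of -0.16 (SE 0.11), and its libraries overlapped those of Control. *Nab1* had a log2 fold change of 0.02 (interval -0.085 to 0.127, edgeR adjusted p = 0.882). *Nab2* had one of -0.11 (SE 0.040, interval -0.191 to -0.026). Its edgeR p of 0.0111 became 0.104 after adjustment over all tested genes, so *Nab2* was not called. Its 3 NaHPO4 libraries were all below Control, as were those of *Egr1* and of 11.6% of tested genes.

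BGP and NaHPO4 given at the same dose and for the same time were then compared with each other. Of the 5 members 3 were higher with BGP and 0 lower, beside 0.38% and 0.205% of tested genes. The background split of 52 genes higher and 28 lower became 46 and 42 when libraries were scaled by total counts alone. *Egr2* differed most, with a log2 fold change of 1.54 (SE 0.10), or 2.90-fold. *Egr1* followed with 1.16 (SE 0.043), or 2.24-fold, and *Egr3* with 0.98 (SE 0.061), or 1.98-fold. Ranked by edgeR p over the 13679 genes, *Egr1*, *Egr3* and *Egr2* took places 1, 2 and 3. They were singled out with these values known, so nothing is read from their rank. *Nab1* had a log2 fold change of -0.01 (interval -0.118 to 0.094, edgeR adjusted p = 0.95). *Nab2* was higher with BGP by 0.11 (interval 0.032 to 0.197), with an edgeR adjusted p of 0.102, and was not called. Its BGP libraries all lay above its NaHPO4 libraries, as those of 10.8% of tested genes did. Both comparisons with Control rest on the same 3 Control libraries, so their values are not independent.

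**Figure D2:**
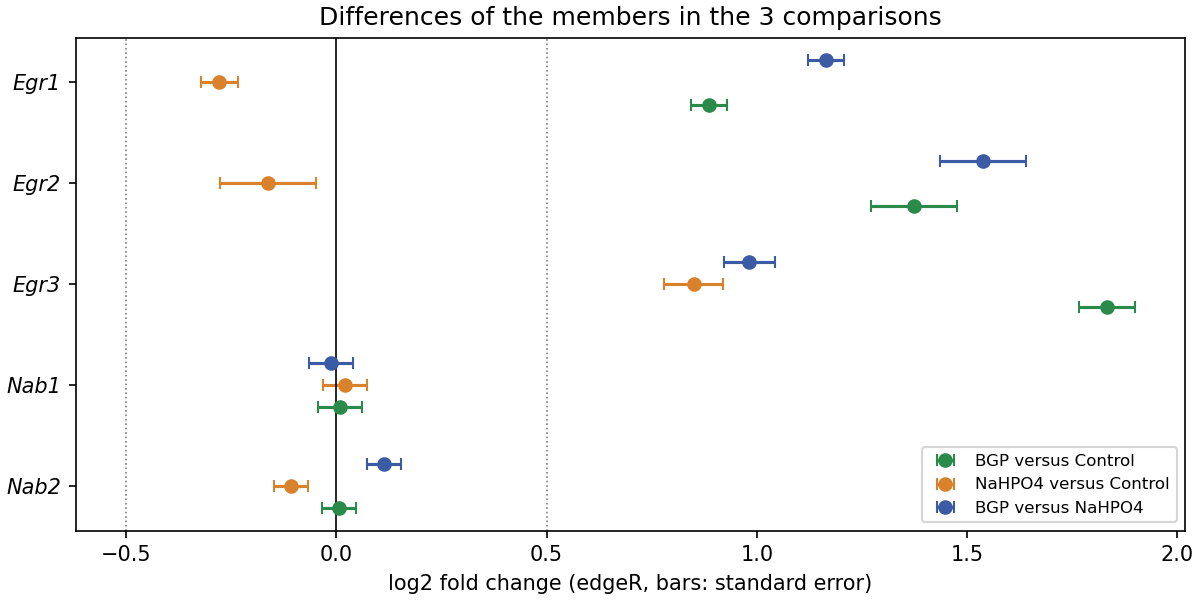
Log2 fold change (horizontal axis) of each member in the 3 comparisons; points are edgeR estimates, bars are 1 standard error and dotted lines mark the minimum change of 0.5. *Egr1* lies at 0.89 with BGP and at -0.28 with NaHPO4 against Control, *Egr3* at 1.83 and 0.85, and both NAB genes stay within 0.12 of 0.

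The order of the fold changes differed between comparisons. Against Control, BGP gave the largest difference for *Egr3* and the smallest for *Egr1*. Against NaHPO4, the largest was that of *Egr2* and the smallest that of *Egr3*. The NaHPO4 libraries had *Egr3* raised and *Egr1* lowered against Control, opposite directions within one family.

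Levels of different genes were compared as CPM per kb of merged exons. The merged length joins all annotated transcripts of a gene, and the length expressed in these cells is not known. Orders and ratios between genes depend on it. In Control, *Egr1* stood at 23.0 ± 1.13 and *Nab2* at 19.7 ± 0.555 CPM per kb (SD, n = 3). *Nab1* at 6.59 ± 0.128 and *Egr3* at 6.14 ± 0.563 were neighbours whose libraries overlapped, and *Egr2* came last at 2.32 ± 0.316 CPM per kb. With BGP the order changed. *Egr1* reached 42.5 ± 2.68, and *Egr3*, at 21.9 ± 2.45, drew level with *Nab2* at 19.8 ± 0.374, their libraries overlapping. *Egr2* at 6.05 ± 0.616 overlapped *Nab1* at 6.62 ± 0.411 CPM per kb. With NaHPO4, *Egr1* at 18.9 ± 0.555 and *Nab2* at 18.3 ± 0.731 overlapped. They were followed by *Egr3* at 11.1 ± 0.882, *Nab1* at 6.68 ± 0.321 and *Egr2* at 2.08 ± 0.150 CPM per kb.

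The makeup of the EGR transcripts in both treatments stood apart from that in Control. *Egr1* made up 73.1 ± 0.612% of the summed EGR level per kb in Control, 60.3 ± 0.966% with BGP and 59.0 ± 1.35% with NaHPO4. *Egr3* made up 19.5 ± 1.06% in Control, 31.1 ± 1.34% with BGP and 34.5 ± 1.55% with NaHPO4. *Egr2* had shares of 7.38 ± 0.819, 8.60 ± 0.605 and 6.48 ± 0.333%. The ratio of *Egr3* to *Egr1* per kb was 0.282, 0.25 and 0.270 in the Control libraries. With BGP it was 0.539, 0.525 and 0.482, and with NaHPO4 0.600, 0.541 and 0.615. All 3 NaHPO4 libraries exceeded all 3 BGP libraries, though by as little as 0.541 against 0.539. A similar *Egr3* share thus stood beside a summed EGR level that was high with BGP and near Control with NaHPO4.

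The ratio of summed EGR to summed NAB level per kb separated BGP from the rest. It was 1.15, 1.16 and 1.27 in Control and 1.35, 1.25 and 1.25 with NaHPO4, ranges that overlapped. In the BGP libraries it was 2.95, 2.58 and 2.47. *Egr1* over *Nab2* followed with means of 1.16 ± 0.0525 in Control, 2.14 ± 0.139 with BGP and 1.04 ± 0.0636 with NaHPO4. *Egr3* over *Nab2* stepped up from 0.311 ± 0.0219 to 0.606 ± 0.0489 with NaHPO4 and 1.11 ± 0.131 with BGP. *Nab1* over *Nab2* stayed at 0.334 ± 0.0095 in Control, 0.334 ± 0.0232 with BGP and 0.366 ± 0.0304 with NaHPO4.

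**Figure D3:**
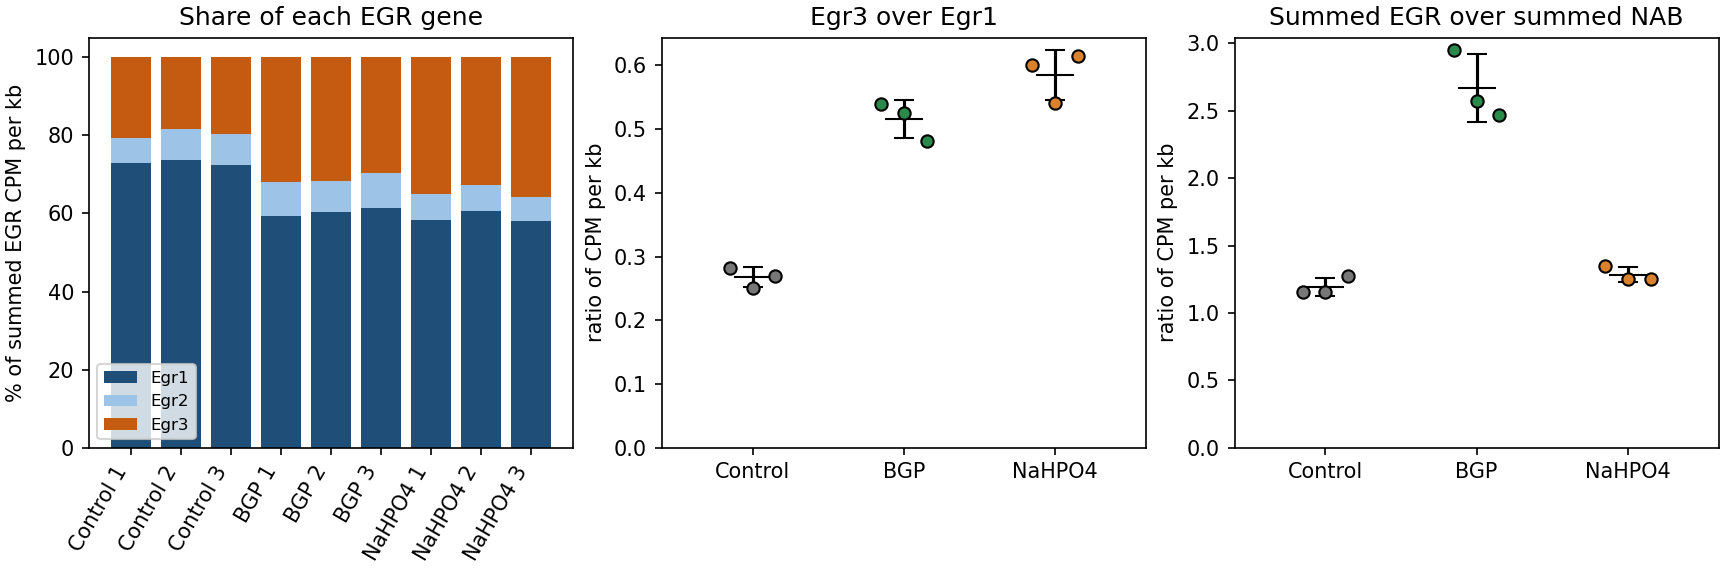
Left, the percent of the summed EGR level (CPM per kb of exon) taken by each EGR gene in the 9 libraries; middle and right, within-library ratios of CPM per kb, with points for libraries and lines for mean and SD. *Egr3* over *Egr1* is about 0.27 in Control against 0.52 with BGP and 0.59 with NaHPO4, while summed EGR over summed NAB is highest in the BGP libraries, at 2.47 to 2.95.

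Control 3, BGP 1 and NaHPO4 1 were each the highest library of their condition for all 3 EGR genes. The other libraries showed no common order: Control 1 deviated from its condition mean by -0.20 for *Egr2* and by 0.06 for *Egr3* on the log2 scale. The BGP 1 library stood above its condition mean by 0.10 for *Egr1*, 0.14 for *Egr2* and 0.17 for *Egr3* on the log2 scale. Over all tested genes a given library was highest in its condition for 29.8 to 35.7%. Of 22 other immediate early genes, BGP 1 was highest in its condition for 12 and NaHPO4 1 for 8, while in Control it was Control 1 for 11 and Control 3 for 8. The residual SD on the log2 scale was 0.153 for *Egr2* and 0.139 for *Egr3*, against 0.070 for *Egr1*, 0.068 for *Nab1* and 0.043 for *Nab2*. Without BGP replicate 1 the log2 fold changes against Control were 0.83 for *Egr1* and 1.74 for *Egr3*, still called.

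By exact matches of 50 bases between annotated transcripts, only the corepressors among the members shared sequence with other genes. Inexact matches and unannotated sequence were not searched. No stretch of 50 bases in *Egr1*, *Egr2* or *Egr3* transcripts recurred in a transcript of another gene, and none was shared between members. For *Nab1* 1.32% and for *Nab2* 29.8% of such stretches recurred. Its exons overlap those of *Nemp1* by 651 bases, of Gm16229 by 1050 bases and of *Stat6* by 77 bases, all on the opposite strand. The strand setting of the counting is not given in the sources used here, so *Nab2* counts may include reads of these genes. *Stat6* and *Nemp1* had log2 fold changes from -0.07 to 0.13 and were not called, and Gm16229 had 0 to 16 counts per library.

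The nearest genes to each EGR gene were sought by the root mean square (RMS) difference of log2 CPM, each gene centred on its own mean, over the 9 libraries and 12074 genes. For *Egr1* the nearest was *Nr4a1*, an immediate early nuclear receptor, at an RMS difference of 0.219. *Hes1*, a Notch-responsive repressor, followed at 0.239, then *Arc* at 0.241, *Skil*, a SMAD corepressor, at 0.247 and the myosin light chain *Myl3* at 0.248. Measured from *Egr2*, the nearest gene was *Egr1* at 0.228, while from *Egr1* the distance to *Nr4a1* was smaller. The non-members nearest *Egr2* were *Scml4* (0.374), *Arc* (0.385), the pseudokinase *Trib1* (0.386), *Hes1* (0.401) and *Hivep3* (0.415), a regulator of bone formation.

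*Egr3* had other neighbours. It lay at 0.50 from *Egr1* and 0.434 from *Egr2*. The nearest was *Ank*, which exports pyrophosphate and other mineralization regulators, at 0.199. *Il12a* (0.240), *Phlda1* (0.273), *Trib1* (0.282) and *Dusp6* (0.289), a phosphatase that inactivates ERK, came next. *Ank* was at a mean of 81.4 CPM in Control, 253 with BGP and 176 with NaHPO4. *Dusp6* stood at 45.8, 108 and 83.5 CPM in the same order. *Nr4a1*, near *Egr1*, ran instead at 18.1 CPM in Control, 23.8 with BGP and 13.0 with NaHPO4. These genes were picked for their likeness, so no test of it is given.

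**Figure D4:**
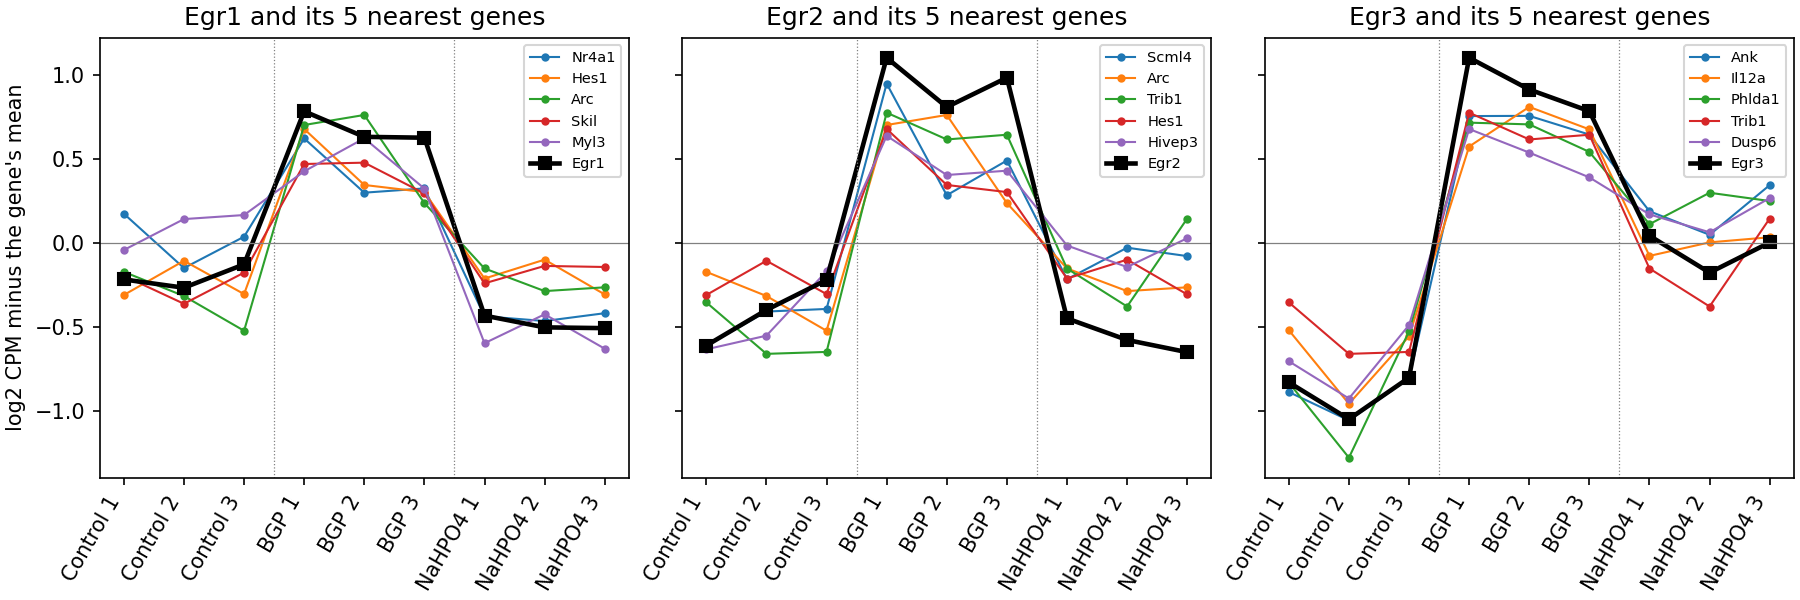
Log2 CPM minus the gene's own mean (vertical axis) across the 9 libraries for *Egr1*, *Egr2* and *Egr3* (black squares) and the 5 genes nearest to each (coloured lines); dotted lines part the conditions. All genes shown are highest on average in the BGP libraries. The *Egr3* neighbours *Ank*, *Il12a*, *Phlda1* and *Dusp6*, and *Scml4* and *Hivep3* near *Egr2*, are also above Control in every NaHPO4 library.

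Other immediate early genes were listed to place the EGR genes among genes of the same kind, and all 22 were tested. With BGP 1 was called higher and 0 lower, beside 0.482% and 0.0731% of tested genes, and the median log2 fold change was 0.14 beside -0.004 over all tested genes. The called gene was *Ccn2*, a matricellular growth factor, at 0.96 (SE 0.055), from a mean of 39.3 CPM in Control to 76.2 CPM. A further 4 passed the adjusted p alone, all upward, where 1.86% of tested genes passed upward and 0.665% downward: *Junb* at 0.42, *Nr4a1* at 0.40, *Ier2* at 0.37 and the antiproliferative *Btg2* at 0.35. With NaHPO4 2 were called higher, beside 0.446% of tested genes: *Fosl1* (an AP-1 subunit) at 1.21 (SE 0.25) and *Ccn2* at 0.64 (SE 0.055), and the median was -0.10. *Fosl1* was low, at a mean of 1.14 CPM in Control. Without the minimum change 3 passed upward and 6 downward, beside 3.43% and 3.95% of tested genes, among them *Nr4a1* at -0.47 and *Fos* at -0.45. Between the treatments 4 were higher with BGP and 0 lower, beside 0.38% and 0.205% of tested genes, with a median of 0.21: *Nr4a1* (0.87), *Fos* (0.59), *Ier2* (0.58) and *Btg2* (0.55). *Nr4a1* and *Ier2*, like *Egr1*, thus passed the adjusted p upward with BGP and downward with NaHPO4. Between the treatments 17 of the 22 list genes had a positive log2 fold change. *Fosl1* had the lowest, at -0.77 (SE 0.24, edgeR adjusted p = 0.0548), and was not called.

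Genes reported in the literature as EGR targets, chosen from general knowledge, numbered 30, of which 26 were tested. With BGP 1 was called higher, *Arc*, which acts in synaptic plasticity, at 0.94 (SE 0.17, edgeR adjusted p = 0.000708), and 0 lower, beside 0.482% and 0.0731% of tested genes. The median was 0.03. With NaHPO4 0 were called higher and 1 lower, beside 0.446% and 0.27% of tested genes. The latter was *Igf2*, a growth factor, which fell by 0.53 (SE 0.12), and the median was -0.05. Without NaHPO4 replicate 2 the number called was 0. Passing the adjusted p alone with NaHPO4 were 2 upward and 5 downward, beside 3.43% and 3.95% of tested genes, the latter including the collagen gene *Col1a2* at -0.17 and *Tgfb1* at -0.16. Between the treatments *Arc* was called higher with BGP at 0.83 (SE 0.17), beside 0.38% of tested genes, 0 were called lower and the median was 0.12. That count became 2 without BGP replicate 2, NaHPO4 replicate 1 or NaHPO4 replicate 3. *Nab2* is also a reported EGR target, and its values are those given above.

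Upstream signalling genes and partners of the corepressors were listed as well. With at most 0.482% of tested genes called in either direction of a comparison, lists of this size may hold no DEG without standing apart from other genes. All 22 RAS, ERK and SRF signalling genes were tested and 0 were called in any comparison, with medians of 0.02 with BGP, 0.02 with NaHPO4 and -0.02 between treatments. *Srf* itself had a mean of 52.4 CPM in Control, 52.3 with BGP and 43.5 with NaHPO4. Its log2 fold change with NaHPO4 was -0.27 (SE 0.051), which passed the adjusted p of edgeR without reaching the minimum change. All 13 NuRD genes were tested, 0 were called, and their log2 fold changes lay between -0.09 and 0.12 over the 3 comparisons. No NuRD gene passed the adjusted p of edgeR alone. Before adjustment, an edgeR p under 0.05 was reached by 3, 5 and 1 of the signalling genes with BGP, with NaHPO4 and between treatments, and by 0, 4 and 2 of the NuRD genes. DESeq2 and limma also called 0 genes of either list in every comparison.

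**Figure D5:**
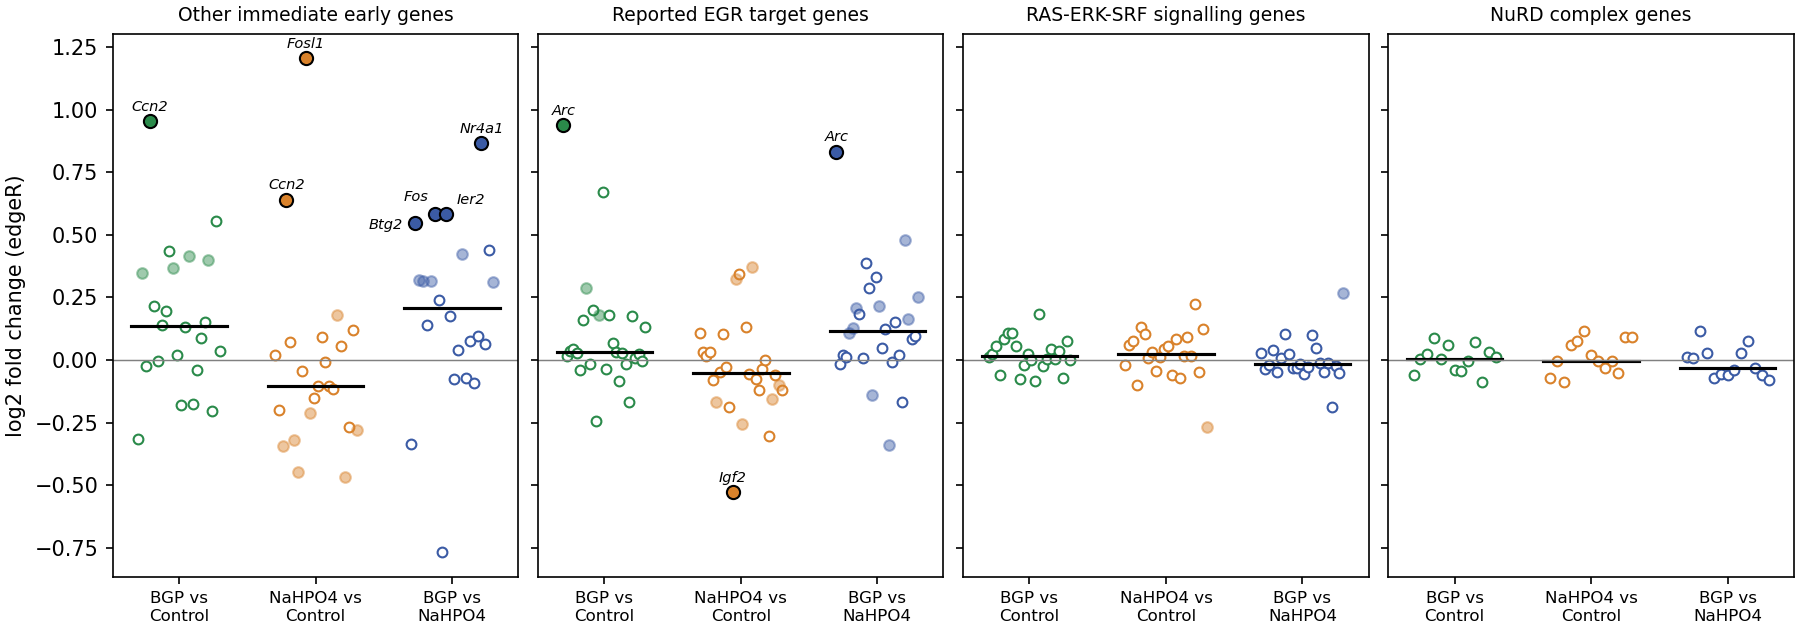
Log2 fold change (vertical axis) of every tested gene in 4 lists and the 3 comparisons; outlined filled points with names are DEGs, pale filled points passed the adjusted p alone, open points did neither, and black lines are list medians. Immediate early genes have medians of 0.14 with BGP and -0.10 with NaHPO4, while signalling and NuRD genes lie close to 0.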

How the data were processed

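RNA was sequenced in 9 libraries of MC3T3-E1 cells, 3 per condition. Per the labels and the study's methods, stranded polyA libraries were checked with FastQC and mapped to GRCm39 in the authors' software; the aligner, counter and strand setting are not given in the sources used here. The authors deposited raw whole-number counts per Ensembl gene, and a second table whose signal values are those deposited counts times one factor per library (1.01 to 1.32), as TMM scaling gives.

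The counts were filtered with filterByExpr (minimum count 10), scaled by TMM and tested with edgeR 4.0.16 (quasi-likelihood test, all 9 libraries in one fit, Benjamini-Hochberg adjustment over 13679 genes) in R 4.3.3. DEGs needed an adjusted p under 0.05 and an absolute log2 fold change above 0.5, the study's rule. Levels are TMM-normalized CPM, and log2 CPM used a prior count of 2. Intervals for zero counts cover counting error only. Scripts were tested on simulated data. Alternatives were DESeq2 1.42.0, limma 3.58.1 on log2(value + 1) of the deposited signal, other scalings, no filter, only the compared groups, a replicate block, and each library left out.

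Exon lengths and positions came from GENCODE on GRCm39. RefSeq promoter windows of GRCm38.p6 were located by their sequence in GRCm39, each matching 1 place. Named genes are the members, *Egr4*, DEGs of each list (at most 6 per list), genes that passed the adjusted p, which were named after their values were seen, and the 5 nearest genes with a mean CPM of at least 1. The members, lists and rules were chosen with earlier results of these data known.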

Additional observations from a re-analysis of the deposited data

How the results depend on the processing

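All 15 calls for the 5 members in the 3 comparisons held under the 16 alternatives that kept the minimum change. The log2 fold change of *Egr1* ranged from 0.83 to 0.93 with BGP and from -0.31 to -0.24 with NaHPO4, and that of *Egr3* from 1.74 to 1.90 and from 0.78 to 0.91. *Nab1* and *Nab2* with BGP changed sign in 3 and 2 of 16 alternatives, on values between -0.02 and 0.06. The adjusted p of *Nab2* came closest to the threshold without NaHPO4 replicate 3, at 0.0502 against Control and 0.0511 between treatments, and ranged up to 0.343 and 0.304. Without a minimum log2 fold change, *Egr1* at -0.28 was also called with NaHPO4, which made 2 members. Genes called higher and lower then numbered 255 and 91 for BGP against Control, 469 and 540 for NaHPO4 against Control, and 456 and 280 between treatments. EGR targets called became 3, 7 and 10 in that order, other immediate early genes 5, 9 and 9, and signalling genes 1 with NaHPO4 and 1 between treatments. When each library was left out in turn, genes called lower with BGP ranged from 1 (without BGP replicate 2) to 12 and were 5 without Control replicate 1, beside 10 in all; EGR targets called ranged from 0 to 1 with NaHPO4 and from 1 to 2 between treatments. The cause was not tested.

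Same-numbered libraries did not deviate together (mean correlation 0.013 over 9 pairs, 0 above 0.1). With 3 libraries per condition this shows no large shared deviation, but cannot show whether same-numbered libraries were handled together. With the replicate block 67 genes were called higher and 9 lower with BGP, 63 and 38 with NaHPO4 and 54 and 33 between treatments, the log2 fold change of *Egr3* with BGP was 1.83, and no member's call changed.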
